A study of Drosophila melanogaster with 4 samples.

Results

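The genes of TORC1, the growth-controlling kinase complex built around Tor, and of the proteins that report amino acid supply to it were compared between the soma and the germline of the Drosophila melanogaster ovary. Members were taken as the rows of the deposited table whose gene symbol equals Tor, raptor, Tsc1, gig, Rheb, S6k, Thor, Nprl2, mio or Sesn, which found 9 of the 10 genes among 17490 listed. S6k, the ribosomal protein S6 kinase, had no row under its symbol and was not analysed here; 82 rows of the table carry no symbol.

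TORC1 holds Tor together with its scaffold raptor and promotes translation and growth when nutrients are plentiful. Its direct activator is the GTPase Rheb, which is held off by the Tsc1-gig complex downstream of insulin signalling. Amino acids act through the Rag GTPases, which bring TORC1 to the lysosome. GATOR1, to which Nprl2 belongs, inhibits the Rags; GATOR2, to which mio belongs, opposes GATOR1; and Sestrins bind GATOR2, the mammalian protein losing this contact when it binds leucine. Thor is the fly 4E-BP, a translational repressor that binds eIF4E1 and is released from it when TORC1 phosphorylates it. In the fly ovary, TORC1 activity supports growth of the follicle.

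Ribosome-bound mRNAs were collected by translating ribosome affinity purification (TRAP), in which a GFP-tagged ribosomal protein is expressed in chosen cells and pulled down with anti-GFP antibodies. The soma libraries came from tj:gal4, UAS RPL10-GFP ovaries, where the traffic jam driver acts in the somatic lineage, and the germline libraries from Nos:Gal4Vp16, UAS:RPL10-GFP ovaries, where the nanos driver acts in germ cells. Both genotypes carry the tagged ribosomal protein and a Gal4 driver, no untagged or driver-free library was used, and each extract pooled the ovaries of many females. There were 2 libraries per group and 4 in all, which the study describes as biological replicates. Whether the 2 of a group came from separate dissections is not given in the sources used here. The limma p-values below rest on the spread between these libraries, with each gene's variance drawn towards that of genes at similar levels. The study's supplement gives 1 rearing temperature for both genotypes, and its methods a corn meal medium with fresh yeast unless otherwise specified; the age of the females is not given in the sources used here.

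Libraries differed widely in depth. Whole reads could be recovered from the deposited FPKM, and those on genes not named as rRNA came to 16675983 and 615390 in soma replicates 1 and 2, against 1164462 and 1283288 in germline replicates 1 and 2. Soma replicate 1 was thus 27.1 times deeper than soma replicate 2, and rRNA took 6.34% and 74.7% of all recovered reads in soma and 65.8% and 56.1% in germline. All 13 soma marker genes were higher in both soma libraries, with summed levels of 8744 and 8828 FPKM in soma and 774 and 560 FPKM in germline. Of 9 germline markers matched, 8 were higher in both germline libraries, with sums of 195 and 153 FPKM in soma and 409 and 474 FPKM in germline. Markers of each lineage also had values in the other pull-down. Germline markers in soma stood at a median of 38.1% of their germline level (range 27.8% to 83.7%). Soma markers in germline stood at a median of 9.69% of their soma level (range 3.08% to 14.9%). Whether these values reflect carried-over mRNA or expression in the other lineage was not tested. Summed markers of muscle, haemocytes, fat body and neurons stayed between 0 and 18.0 FPKM in every library, and NimC1 of haemocytes, Fbp1 and Lsp2 of fat body and nSyb of neurons were listed at 0 in all 4. Nplp2 of haemocytes had 15.4 FPKM in soma replicate 1 and 0.558 FPKM or less elsewhere. Prm of muscle, Pxn of haemocytes, and elav and Syt1 of neurons were higher in both soma libraries. Prm averaged 2.23 FPKM in soma and 0.486 in germline, and elav 0.799 and 0.0764. None of these markers was higher in both germline libraries.

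Thor was the only member to pass the adjusted test between the lineages. With limma on log2(FPKM + 0.1), 1 of 9 members passed an adjusted p (Benjamini-Hochberg over 8823 genes) under 0.05 with a higher level in soma, where 8.64% of all genes tested did, and 0 of 9 passed with a higher level in germline, where 3.59% of all genes did. At an unadjusted p under 0.05, 1 member, Nprl2, was higher in germline, where 11.0% of all genes were, and limma-voom on the recovered reads also called 0 members higher in germline. The same single gene, Thor, passed a change of more than 5-fold with an unadjusted p under 0.05, as did 9.41% of all genes in the soma direction. The members' median log2 fold change was 0.11 and ran between -1.62 and 3.01, beside a median of 0.04 over all genes tested. Soma and germline values did not overlap for 4 members, Rheb and Thor higher in soma and Tor and Nprl2 higher in germline; groups did not overlap for 55.4% of all genes tested.

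**Figure D1:**
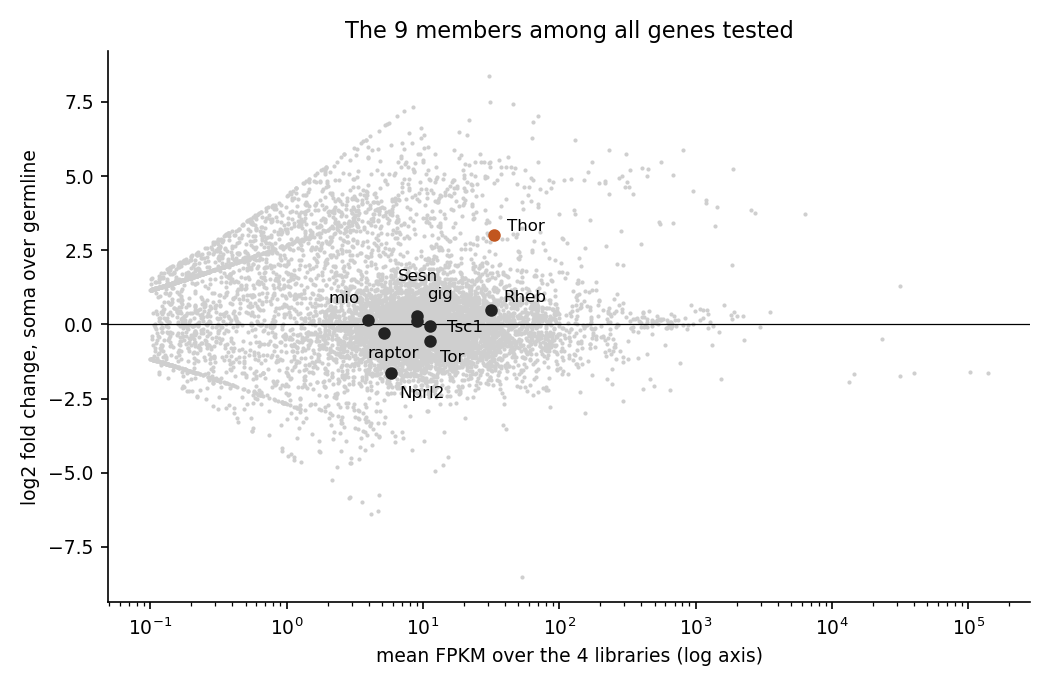
Log2 fold change of soma over germline on log2(FPKM + 0.1) (vertical axis) against mean FPKM over the 4 libraries (log horizontal axis) for the 8823 genes tested (grey) and the 9 members (black, Thor in orange). Thor lies at 3.01, Nprl2 at -1.62, and the other 7 members between -0.55 and 0.49.

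Thor (FBgn0261560, chr2L:3478434-3479612 on the plus strand of dm6, 2 exon blocks) encodes the repressor that TORC1 switches off. It had 62.4 and 55.9 FPKM in soma replicates 1 and 2, against 7.21 and 7.31 FPKM in germline replicates 1 and 2. Both soma values were far above both germline values, and the spread within each pair was small beside the gap. Means were 59.1 ± 4.65 FPKM in soma and 7.26 ± 0.0664 FPKM in germline (SD, n = 2 each), 8.04-fold higher in soma (95% interval 5.17 to 12.5; log2 fold change 3.01, SE 0.27, limma adjusted p = 0.00209). The values rest on 2023 and 52 reads in soma and on 16 and 20 reads in germline. Exact Poisson intervals, which cover counting error only, were 59.7 to 65.2 and 41.7 to 73.3 FPKM in soma and 4.12 to 11.7 and 4.46 to 11.3 FPKM in germline, so the lineages stayed apart in counting error as well.

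In soma, Thor stood at the 92.8th percentile of the genes tested, and in germline at the 51.6th. Its germline level was 12.3% of its soma level, inside the 3.08% to 14.9% that soma markers showed in the germline libraries. Whether carried-over soma mRNA contributed to Thor's germline value was not tested. As in any bulk pull-down, more cells of a type, more RNA per cell and more ribosomes on the mRNA cannot be told apart. The fold hardly moved when a library was left out (log2 fold change 2.93 to 3.09), but the call did: adjusted p was 0.0553 without soma replicate 1, 0.0358 without soma replicate 2, 0.279 without germline replicate 1 and 0.245 without germline replicate 2. In both fits with 1 germline library, limma called 0 of 8823 genes, while 1412 and 1577 genes had an unadjusted p under 0.05.

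The kinase itself and its scaffold did not follow Thor. Tor (FBgn0021796, chr2L:13004480-13013197, plus strand) had 7.65 and 10.6 FPKM in soma, against 15.3 and 11.5 FPKM in germline. Both germline libraries were above both soma libraries, by little where they came closest, and there the counting intervals overlapped (8.63 to 12.8 FPKM in soma replicate 2 and 10.3 to 12.8 FPKM in germline replicate 2). The fold of soma over germline was 0.681 (95% interval 0.379 to 1.22; adjusted p = 0.369 in limma). The scaffold gene raptor (FBgn0029840, chrX:6082634-6090201, minus strand) had 5.95 and 3.54 FPKM in soma and 6.04 and 5.28 FPKM in germline. Those ranges overlapped, with soma replicate 2, covered by 31 reads, the lowest, and the fold was 0.816 (95% interval 0.373 to 1.79). In the annotation, 23.5% of the exon bases of raptor are shared with Mipp2 on the same strand, which was itself listed at 0.645 and 0.660 FPKM in soma and 0.138 and 1.12 FPKM in germline, so the split of reads between them is uncertain.

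The inhibitor pair upstream of Rheb was close to even in the 2 lineages. Tsc1 (FBgn0026317, chr3R:24130307-24134654, plus strand), the stabilising subunit, had 11.5 and 10.6 FPKM in soma and 11.6 and 11.4 FPKM in germline. This was the member with the smallest difference, at a fold of 0.961 (95% interval 0.574 to 1.61), which leaves room for changes of up to about those bounds. Its partner gig (FBgn0005198, chr3L:20129181-20139010, plus strand), the fly Tsc2 and the subunit that acts on Rheb, had 8.82 and 11.1 FPKM in soma and 9.22 and 7.04 FPKM in germline. The groups overlapped, and the fold was 1.22 (95% interval 0.670 to 2.23).

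Rheb (FBgn0041191, chr3R:5568921-5570491, plus strand), the GTPase that activates TORC1, was the most abundant member in germline and the second in soma. It had 38.0 and 35.1 FPKM in soma, against 24.2 and 27.9 FPKM in germline. Every soma value exceeded every germline value, but the fold of 1.40 had an interval that took in 1 (95% interval 0.917 to 2.15; limma adjusted p = 0.276).

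Among the amino acid inputs, Nprl2 had the lowest ratio of soma to germline of the 9 members. Nprl2 (FBgn0030800, chrX:16882509-16884365, minus strand), a GATOR1 subunit and so an inhibitor of the pathway, had 5.02 and 1.43 FPKM in soma, against 8.77 and 8.24 FPKM in germline. Germline libraries were near each other and above both soma libraries, whereas the 2 soma values differed widely and soma replicate 2 held 3 reads. Its fold was 0.325 (95% interval 0.112 to 0.947; log2 fold change -1.62, SE 0.65), with an unadjusted p of 0.0420 and an adjusted p of 0.161 in limma, so it did not pass.

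Soma replicate 2 decided how large that difference was. Without it the log2 fold change of Nprl2 was -0.75 (adjusted p = 0.282, limma), and without soma replicate 1 it was -2.50 (adjusted p = 0.118). Over all alternatives the adjusted p of Nprl2 lay between 0.0683 and 0.587. With all libraries kept, the log2 fold change of Nprl2 ran from -1.96 under quantile normalization to -0.88 in limma-voom on the recovered reads. Against the pooled germline reads, and with counting error only, the deeply covered soma replicate 1 stood at 0.593 of the germline level (95% interval 0.472 to 0.751, 368 reads). Soma replicate 2 stood at 0.168 (0.0341 to 0.506). Nprl2's mean level in soma was 37.9% of that in germline, beside the median of 38.1% for germline markers in the soma libraries. Whether carried-over germline mRNA contributed to its soma value was not tested. Of its exon bases, 11.2% are shared with CG4872 on the opposite strand, and whether strand was used in the counting is not stated.

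The remaining amino acid inputs gave overlapping groups. GATOR2's mio (FBgn0031399, chr2L:2217290-2220625, plus strand), whose complex relieves the inhibition by GATOR1, had 4.85 and 3.29 FPKM in soma and 5.07 and 2.52 FPKM in germline. Both lineages spanned much the same range on 12 reads in soma replicate 2 and 27 in germline replicate 2, and the fold of 1.11 had a wide interval (95% interval 0.431 to 2.88). Sesn (FBgn0034897, chr2R:23713900-23734846, plus strand), the single fly Sestrin, had 10.01 and 8.69 FPKM in soma and 7.86 and 9.44 FPKM in germline, a fold of 1.08 (95% interval 0.608 to 1.92). In the annotation used here Sesn shares 65.1% of its exon bases with CG46429 on the same strand, a gene with no row in the table, so its reads cannot be assigned to Sesn alone.

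**Figure D2:**
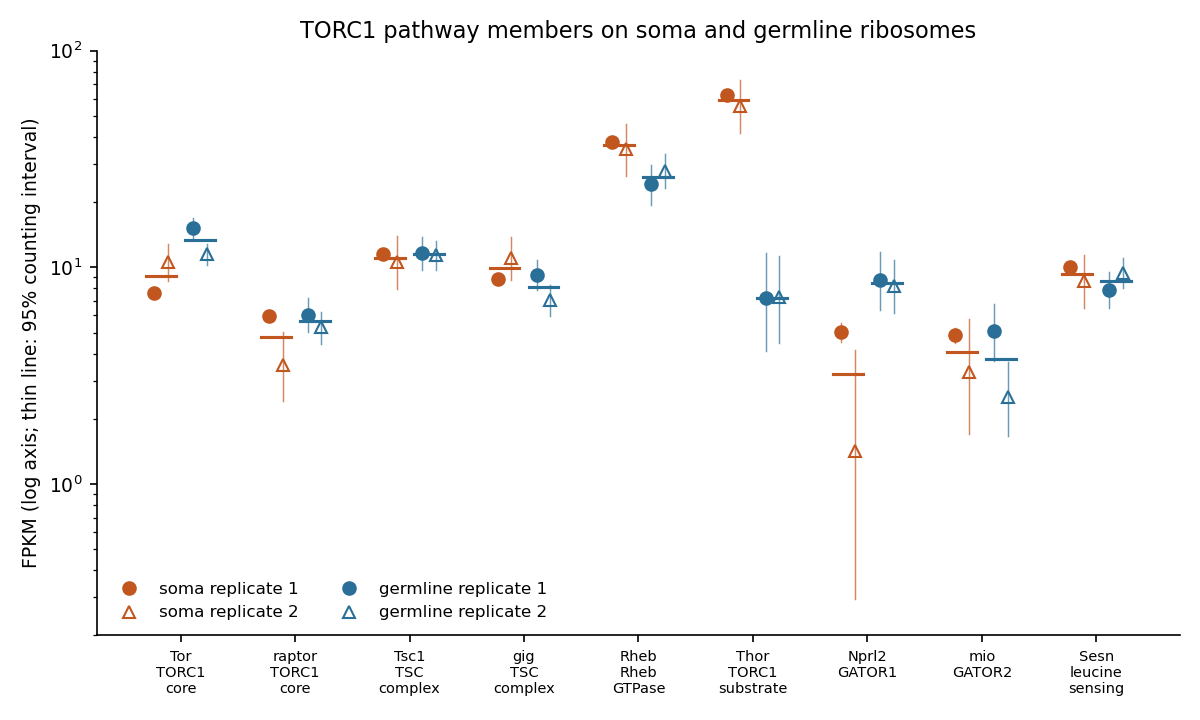
FPKM (log axis) of the 9 members in soma replicates 1 and 2 (orange) and germline replicates 1 and 2 (blue); short bars are group means and thin lines are 95% Poisson intervals, for counting error only. Thor's soma points lie at 62.4 and 55.9 FPKM with its germline points at 7.21 and 7.31, and the longest thin line belongs to Nprl2 in soma replicate 2 (0.294 to 4.17 FPKM).

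FPKM values are per exon length, so levels could be ordered between genes. In soma the order was Thor at 59.1 FPKM and Rheb at 36.6, each apart from the next in every library. A group of similar levels followed, Tsc1 at 11.1, gig at 9.94, Sesn at 9.35 and Tor at 9.11, whose neighbours overlapped, and then raptor at 4.75, mio at 4.07 and Nprl2 at 3.22, whose neighbours overlapped too. In germline Rheb led at 26.0 FPKM, with Tor at 13.4 and Tsc1 at 11.5 overlapping each other. Sesn at 8.65, Nprl2 at 8.51, gig at 8.13 and Thor at 7.26 formed an overlapping run, and raptor at 5.66 and mio at 3.79 stood lower and apart. Thor thus ranked 1 of 9 in soma and 7 of 9 in germline.

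Partners were also compared as ratios within a library. The linear ratios do not depend on how that library was scaled, and the log2 ratios only through the 0.1 FPKM added to each gene. With 2 libraries against 2 an exact two-sided permutation test cannot go below p = 0.333, so none of the 6 ratios could pass, and their adjusted values could not be lower. The repressor against its target, Thor over eIF4E1 (the cap-binding protein), was 0.483 and 0.344 in soma and 0.0338 and 0.0391 in germline. Soma stood far above germline in both libraries, with mean log2 ratios of -1.29 ± 0.34 in soma and -4.76 ± 0.15 in germline (SD, n = 2 each) and a difference of 3.47 (exact permutation p = 0.333).

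The other ratios differed less between the lineages. Log2 raptor over Tor was -0.36 and -1.55 in soma and -1.32 and -1.11 in germline, log2 gig over Tsc1 was -0.38 and 0.06 in soma and -0.33 and -0.69 in germline, and log2 Rheb over gig was 2.10 and 1.66 in soma and 1.38 and 1.97 in germline. These 3 overlapped between the lineages. With the inhibitor as denominator, log2 mio over Nprl2 was -0.05 and 1.15 in soma and -0.78 and -1.67 in germline. Log2 Sesn over Nprl2 was 0.98 and 2.53 in soma and -0.16 and 0.19 in germline. Neither overlapped, and both share Nprl2 and its 3 reads in soma replicate 2.

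**Figure D3:**
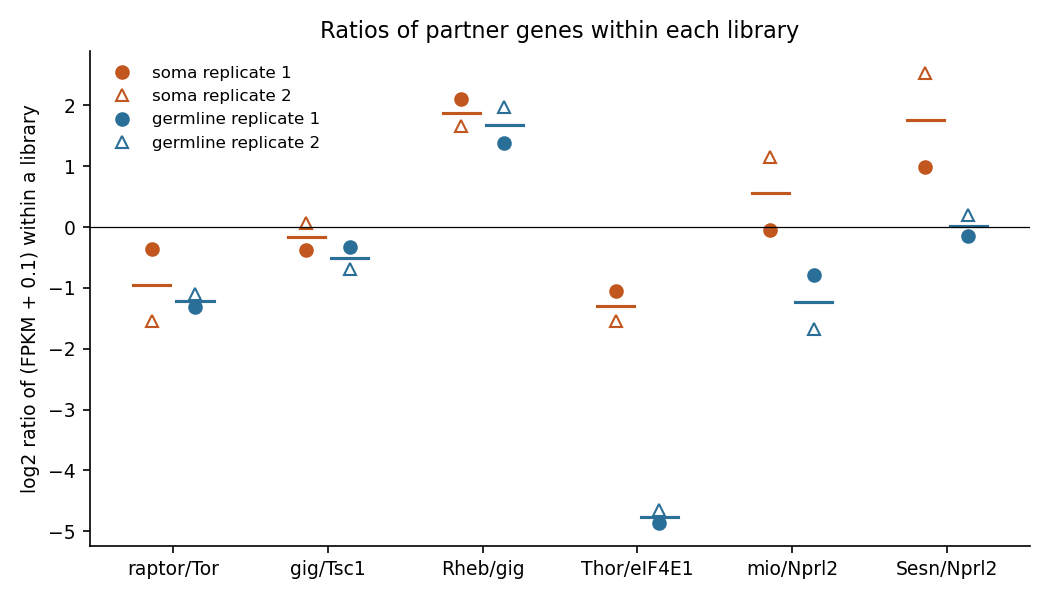
Log2 ratio of FPKM + 0.1 for 6 pairs of partner genes within each library, soma in orange left of germline in blue, with short bars for group means. Thor over eIF4E1 lies at -1.05 and -1.54 in soma and at -4.87 and -4.66 in germline, the largest gap of the 6.

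The wider pathway was read from a list of 39 other genes. Of these, 37 had a row, 2 of them (Lamtor2 and CG1139) were listed at 0 in every library, and 35 were tested. At an adjusted p under 0.05, 4 of 35 were higher in soma, beside 8.64% of all genes tested, and 0 of 35 higher in germline, beside 3.59%. At an unadjusted p under 0.05, 6 of 35 were higher in soma (those 4, RagA-B and Lamtor3), beside 16.8% of all genes tested, and 3 of 35 were higher in germline (Lst8, Wdr24 and Sin1), beside 11.0%. In the germline direction, limma-voom on the recovered reads called 1 gene, Wdr24. The median log2 fold change was 0.07. Groups did not overlap for 13 genes higher in soma and 9 higher in germline, where 29.6% and 25.8% of all genes were so placed.

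The 4 genes that passed include both parts of a transcription factor that TORC1 restrains. REPTOR, which enters the nucleus and activates transcription when TORC1 is off, had 19.8 and 18.2 FPKM in soma, against 3.77 and 4.95 FPKM in germline. Its log2 fold change was 2.11 (SE 0.35, adjusted p = 0.0134 in limma). REPTOR-BP, its DNA-binding partner, had 37.7 and 38.4 FPKM in soma, against 10.7 and 8.70 FPKM in germline, a log2 fold change of 1.97 (SE 0.28, limma adjusted p = 0.00825). Both were higher in every soma library, as Thor was. Their germline levels were 22.9% and 25.5% of the soma levels, above the range of the soma markers. Those germline values rest on 79 and 128 reads for REPTOR and on 20 and 20 for REPTOR-BP. Whether carried-over soma mRNA contributed to them was not tested.

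The other 2 belong to inputs of the pathway. For alc, the beta subunit of the energy sensor AMPK, the soma libraries had 40.5 and 42.5 FPKM and the germline libraries 13.4 and 11.8 FPKM, with a log2 fold change of 1.71 (SE 0.27, limma adjusted p = 0.0107). AMPK's catalytic subunit AMPKalpha and its gamma subunit SNF4Agamma did not pass, at log2 fold changes of 0.07 and 0.47. The amino acid transporter path had 162 and 234 FPKM in soma, against 66.9 and 83.4 FPKM in germline, with a log2 fold change of 1.38 (SE 0.32, limma adjusted p = 0.0365). None of the 4 passed when any 1 library was left out (adjusted p 0.110 to 0.354) or in eBayes without a trend, and path also missed without a filter on low values (adjusted p = 0.0519); log2 fold changes over the left-out libraries stayed between 1.12 and 2.30.

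Complex by complex, the direction of the differences varied. The other GATOR1 subunits lay on the same side as Nprl2 without overlap, as did 25.8% of all genes tested. Nprl3 had 6.45 and 3.65 FPKM in soma (11 reads in replicate 2) against 6.83 and 11.0 FPKM in germline. Iml1 had 5.59 and 3.79 FPKM in soma against 7.12 and 5.94 FPKM in germline. For both, the closest soma and germline values differed by little. None of the 3 GATOR1 genes passed (adjusted p = 0.324 and 0.525 for Nprl3 and Iml1 in limma). In GATOR2, Wdr24 had 5.37 and 3.002 FPKM in soma against 9.19 and 13.7 FPKM in germline (log2 fold change -1.46, adjusted p = 0.0938 in limma and 0.0395 in limma-voom), while Wdr59, Nup44A and Sec13 overlapped, at 0.02, -0.71 and -0.31. Lst8, the third TORC1 subunit, had 9.03 and 9.68 FPKM in soma against 15.9 and 16.8 FPKM in germline (adjusted p = 0.143, limma).

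The Rag and Ragulator genes, which carry TORC1 to the lysosome, included no call. RagA-B had 27.7 and 24.2 FPKM in soma against 12.3 and 14.3 FPKM in germline, without overlap (log2 fold change 0.96, limma adjusted p = 0.0754), and RagC-D overlapped at -0.15. The 4 Ragulator genes with values had log2 fold changes of 0.45 to 0.86. Of the tested translation, autophagy and TORC2 genes none passed; eIF4E1, the target of Thor, had 129 and 162 FPKM in soma and 213 and 187 FPKM in germline (log2 fold change -0.46, adjusted p = 0.390 in limma).

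**Figure D4:**
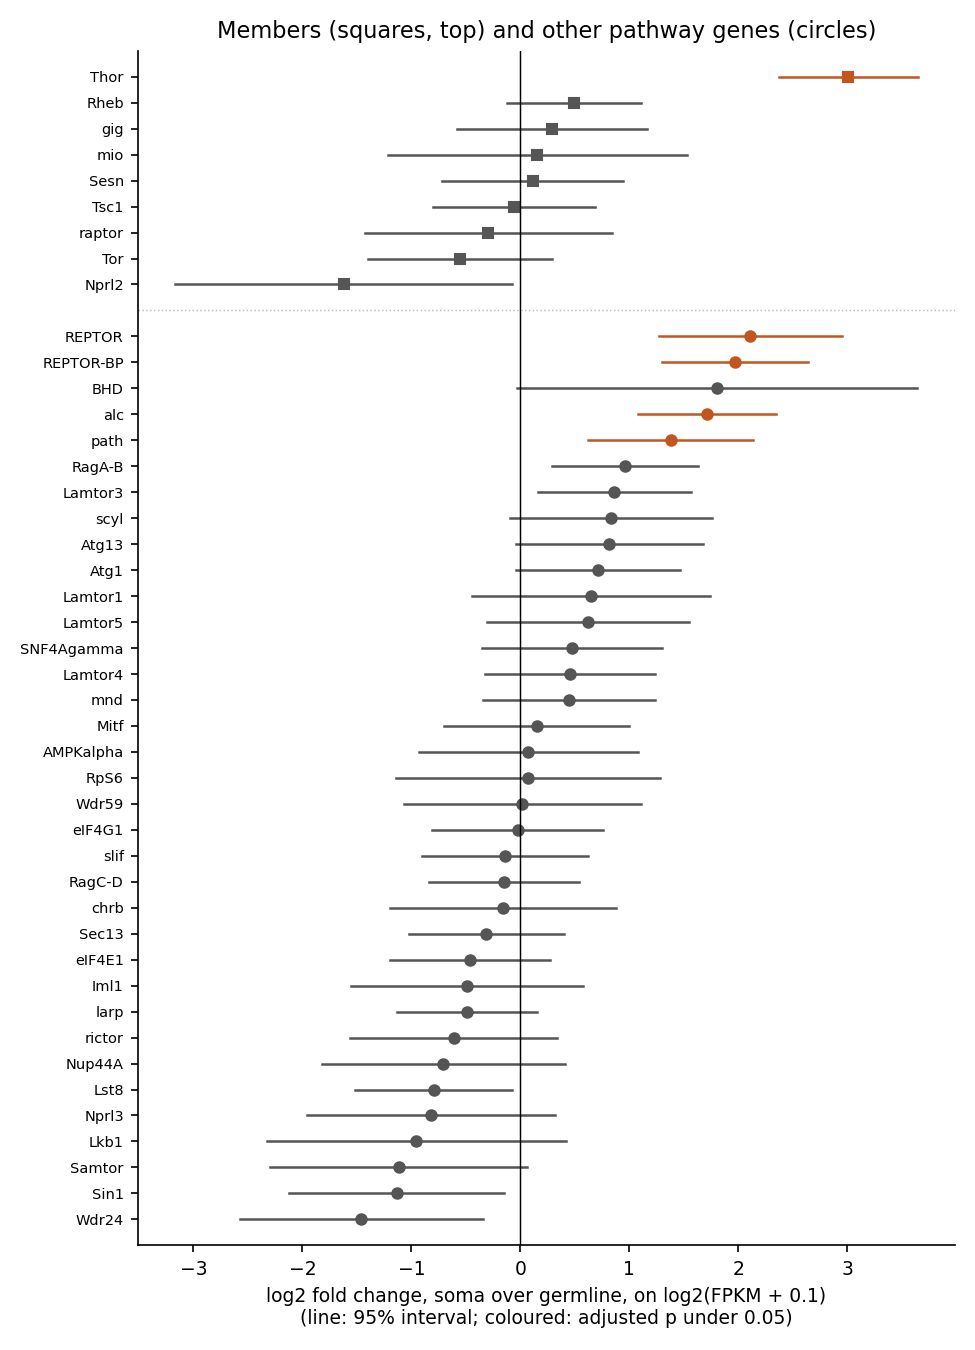
Log2 fold change of soma over germline on log2(FPKM + 0.1) with its 95% interval for the 9 members (squares, top) and 35 other pathway genes (circles); orange marks an adjusted p under 0.05. Thor at 3.01, REPTOR at 2.11, REPTOR-BP at 1.97, alc at 1.71 and path at 1.38 are marked, all to the right of 0.

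Patterns over the 4 libraries were matched for the members at the ends of the range, by the Euclidean distance of log2(FPKM + 0.1) after centring each gene on its own mean, among the 7257 genes that averaged 1 FPKM or more. Nearest to Thor were CG3662, CR18854 and PH4alphaEFB (distances 0.0935, 0.101 and 0.206). CG3662, for example, had 55.9 and 49.8 FPKM in soma and 5.93 and 6.38 FPKM in germline. Nearest to Nprl2 were rumi, CG15141 and lin-52 (0.147, 0.202 and 0.206), and rumi had 7.90 and 2.64 FPKM in soma and 14.4 and 13.8 FPKM in germline. Nprl2's value in soma replicate 2 rests on 3 reads (Poisson interval 0.294 to 4.17 FPKM). How far counting error shaped its matches was not tested.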

How the data were processed

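The authors deposited a table of FPKM, fragments scaled by exon length and by a constant for each library, with a column for each library. Its decimal commas were read as decimal points. Their processing notes name cutadapt, FastQC, HISAT2 and the build dm6; the counting tool, the annotation and the use of strand are not given in the sources used here. Libraries were made with a Nugen Ovation kit for Drosophila. The deposited values were already scaled between libraries, since their median ratio factors were equal.

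Exon lengths and coordinates came from Ensembl release 115 (BDGP6.54, the dm6 coordinates). Whole reads within 0.03 were recovered for 10088 of 10518 genes above 0 (95.9%), and for all 9 members. The contrast of soma minus germline was fitted on log2(FPKM + 0.1) for genes averaging 0.1 FPKM or more (limma 3.58.1, R 4.3.3; lmFit, then eBayes using an intensity trend; no replicate block). Folds are on that scale and understate the change of low genes. Tests were two-sided. Intervals are 95% intervals. Other steps used Python 3.11.15 with scipy 1.17.1.

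The members and lists were chosen with earlier results of these data known. All members are named, with other pathway genes that passed the test, partners in ratios and subunits of the members' complexes, and for the highest and lowest member the 3 genes most alike; further genes were named after their values were seen. Of the 39 other pathway genes, PRAS40 and Maf1 had no matching row.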

Additional observations from a re-analysis of the deposited data

How the results depend on the processing

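Each member was refitted under 13 alternatives: pseudocounts of 1 and 0.01 FPKM, no filter and a minimum mean of 1 FPKM, median ratio scaling, quantile normalization, eBayes without a trend, a replicate block, limma-voom on recovered reads, and each of the 4 libraries left out. Thor kept its direction in all 13 (log2 fold change 2.86 to 3.09). It passed in every fit with all libraries, but not in every fit with a library left out. In the fits with all libraries its adjusted p in limma was 1.16e-07 with the replicate block and 0.00161 to 0.0359 otherwise. The 8 other members passed in none of the fits. The sign changed in some alternatives for raptor (same in 12 of 13), mio (10 of 13) and Sesn (12 of 13). With each library left out, the members higher in soma numbered 0 to 1, the members past 5-fold 1 to 2 (Nprl2 being added without soma replicate 1), other pathway genes higher in soma 0 to 0, all genes higher in soma 0 to 564 and all genes higher in germline 0 to 11. In eBayes without a trend, other pathway genes higher in soma numbered 0, and all genes 451 in soma and 37 in germline, against 762 and 317 reported; limma-voom called 1 other pathway gene (Wdr24) and 650 of all genes higher in germline. With the replicate block, 968 genes were higher in soma and 581 in germline, and the block changed no member's call. Whether libraries of the same number were handled together is not given in the sources used here. The replicate differences of soma and germline had a correlation of -0.07 across 8823 genes, which cannot settle it. Quantile normalization moved the median log2 fold change of all genes to -0.17 and leaving out the filter moved it to 0.17, against 0.04 reported. Depth limits Nprl2 and mio most: 3 and 12 reads in soma replicate 2.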
